A study of Mus musculus with 4 samples.

Results

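The genes described here encode 10 proteins through which amino acids and stress set the activity of mTORC1, the protein kinase complex that drives cell growth: Sesn1, Sesn3, Ddit4, Slc38a9, Depdc5, Nprl2, Nprl3, Rraga, Flcn and Tsc2. They were taken by gene symbol from a table of read counts, and all 10 were found among its 23481 genes. All libraries were made from 4T1-T cells, which derive from the mouse mammary carcinoma line 4T1 and in which Asns, the gene for asparagine synthetase, was silenced. One group of 2 libraries was from cells kept in DMEM that lacked asparagine, and the other group of 2 was from cells whose DMEM contained it; each group has a library A and a library B. Cells of both groups carried the silencing, and how it was done, whether the line is a clone and how long the cells were kept in each medium are not stated in the sources used here. Cells with Asns left intact were not analysed here, and the comparison is between media only. Levels are given for library A and then library B of a group.

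mTORC1 is recruited to the lysosome surface by the Rag GTPases, which are switched on when amino acids are plentiful. The GATOR1 complex holds the Rags in the inactive state, GATOR2 opposes GATOR1, and cytosolic sensors of the sestrin and CASTOR families bind GATOR2 when leucine or arginine is scarce. Another arm runs through the TSC complex, which keeps the small GTPase Rheb inactive and thereby mTORC1 off during stress. Most of this control acts on the proteins, so transcript levels describe the supply of the components and not the activity of the kinase.

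None of the 10 genes passed the test between the media. Of all 12843 genes tested, 1.85% were called (edgeR quasi-likelihood test, adjusted p threshold 0.05), so 0 of 10 lies close to the background. At an unadjusted p under 0.05 there were 2 of the 10, Sesn3 and Nprl2, against 18.1% of all genes, and with limma-voom or the DESeq2 Wald test, which called 1.83% and 3.61% of all genes, 0 of the 10 were called. Log2 fold changes without minus with asparagine lay between -0.31 for Sesn3 and 0.42 for Nprl2, 5 above 0 and 5 below, with a median of -0.013 against 0.0089 over all genes tested. The 95% intervals of all 10 genes, each taken alone and not adjusted for their number, stayed between -0.59 and 0.80, so that none reached a 2-fold change in either direction.

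Gene counts totalled 17977552 and 22581543 for the cells without asparagine and 23867011 and 30260582 for those with it, of which the 10 genes together took 5245, 6403, 7258 and 8861. Asns, the silenced gene, had 74.99 and 89.2 CPM without asparagine and 102.7 and 101.3 CPM with it, on 1376 to 3036 reads (log2 fold change -0.31 ± 0.12, edgeR adjusted p = 0.235). With no library of unsilenced cells analysed here, these levels do not check the silencing. CPM scale each gene's counts to the TMM-adjusted library total. On this scale the sum of the 10 genes was 286 without asparagine in both libraries and 305 and 296 with it. Library A without asparagine stood apart: 56.6% of its reads fell outside annotated features, against 46.3% to 49.3% in the other libraries, and the ribosomal RNA precursor Rn45s took 3.53% of its gene counts, against 0.884% to 1.66%. All 8 markers of mammary carcinoma epithelium were detected in every library, with summed levels of 993 to 1019 CPM without and 829 to 921 CPM with asparagine. Markers of leucocytes summed to 6.85 to 8.34 CPM, mostly from Cd68, those of endothelium and of fibroblasts to at most 1.597 and 0.588 CPM, and those of adipocytes to at most 0.126 CPM. Adipoq, Cd3e, Hbb-bs and Hba-a1 had 0 reads. Because nothing in the labels says that the libraries of a group came from separate cultures, p-values measure only the spread between these libraries, which may be technical. In bulk RNA, fewer cells with a transcript and less transcript per cell cannot be told apart.

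**Figure D1:**
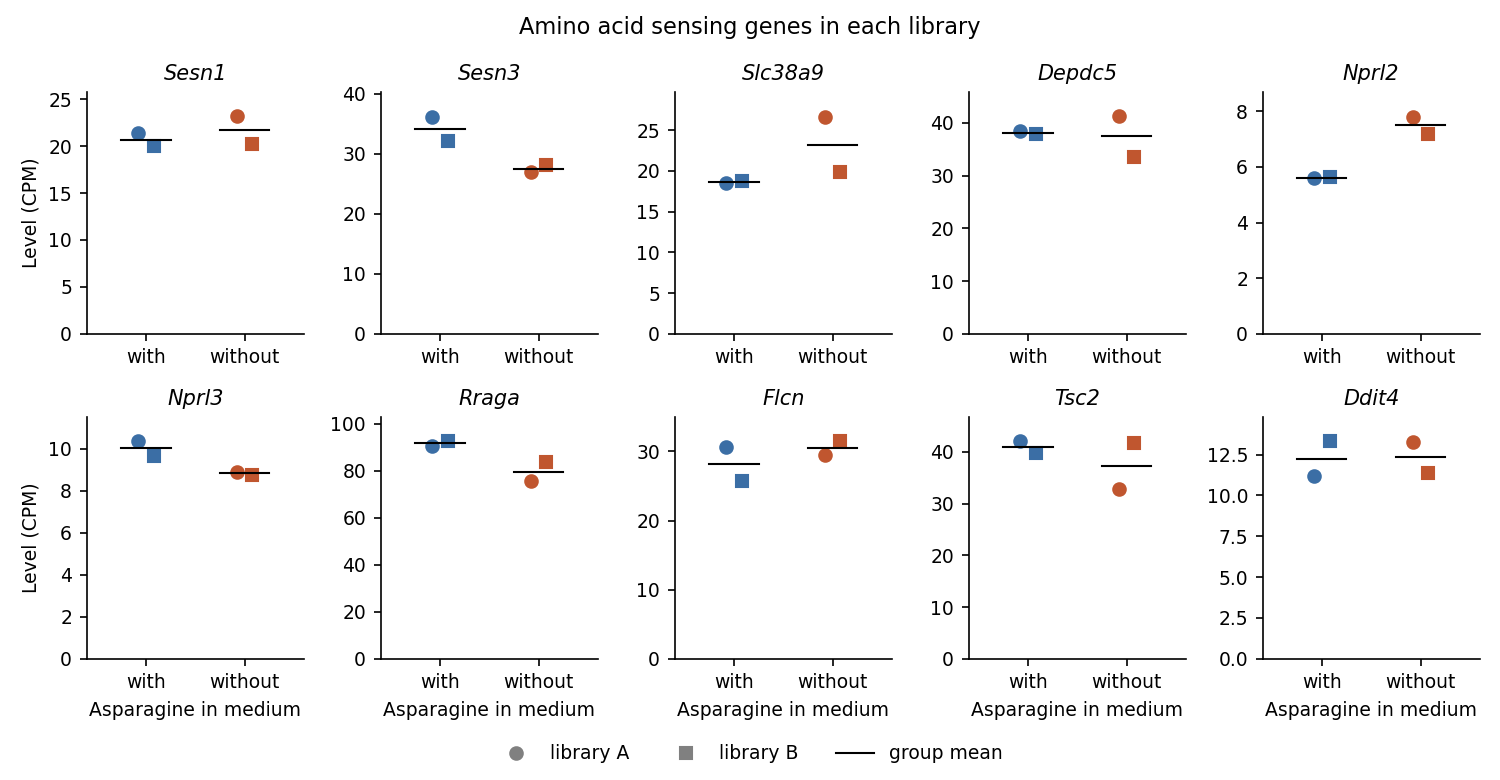
Level of each gene in each library (vertical axis, CPM from 0) by medium (horizontal axis), with circles for library A, squares for library B and a black line for the mean of each group of 2. Sesn3, Nprl3 and Rraga are lower in both libraries without asparagine than in either with it, Nprl2 and Slc38a9 are higher, and the other 5 genes overlap between the media. Of all 12843 genes tested, 52.5% did not overlap.

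To show which control regions the genes with the smallest p-values and the stress-induced gene Ddit4 have, the 250 bases before their RefSeq transcription starts are given here, 5′ to 3′ on the strand of the gene (RefSeq, GRCm38.p6). Capitals mark each ACGTG or GCGTG, on either strand, the core letters of the element bound by hypoxia-inducible factors. Sesn3 is at chr9:14276051-14276300 on the plus strand, Nprl2 at chr9:107541959-107542208 on the plus strand, and Ddit4 at chr10:59951771-59952020 on the minus strand.
Sesn3: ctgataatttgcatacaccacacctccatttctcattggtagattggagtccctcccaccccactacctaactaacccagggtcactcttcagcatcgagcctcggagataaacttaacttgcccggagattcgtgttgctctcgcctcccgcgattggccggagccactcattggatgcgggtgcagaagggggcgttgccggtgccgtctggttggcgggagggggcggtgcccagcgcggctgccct
Nprl2: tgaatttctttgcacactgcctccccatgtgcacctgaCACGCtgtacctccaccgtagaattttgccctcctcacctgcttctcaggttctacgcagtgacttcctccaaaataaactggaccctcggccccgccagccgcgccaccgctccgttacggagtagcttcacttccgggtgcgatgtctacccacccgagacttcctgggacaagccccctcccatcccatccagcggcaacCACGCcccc
Ddit4: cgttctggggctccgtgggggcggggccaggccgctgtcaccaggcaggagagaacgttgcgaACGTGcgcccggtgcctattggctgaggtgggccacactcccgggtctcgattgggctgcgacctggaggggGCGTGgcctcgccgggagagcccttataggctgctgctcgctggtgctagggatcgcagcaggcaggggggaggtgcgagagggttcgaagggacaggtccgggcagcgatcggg

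Ddit4 held 2 such matches in this window, 187 and 115 bases before the start, Nprl2 held 2 and Sesn3 none. In the GENCODE M21 annotation Sesn3 starts at 14275067, upstream of its window here, and letters before that start were not searched. Windows of 250 bases before to 50 bases after a start held ACGTG or GCGTG in 43.8% of 32851 promoters in the table, and in 7 of the 11 windows of the 10 genes, of which Sesn1 has 2. The E-box CACGTG, bound among others by the lysosomal regulators TFEB and TFE3, was found in 7.15% of promoters, and in none of the 11 windows of the 10 genes. TGATGCAA, a form of the ATF4 element, was found in 0.895% and in none of the 11. TGTTTAC, the FoxO core, was found in 3.65% and in 1 of the 11, at the upstream start of Sesn1, 22 bases after it. All letters were searched on both strands. A match is a description of these letters, and an absent one says only that they are not in this window.

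Among the sensors that act on GATOR2, Sesn3 had the lower values without asparagine and Sesn1 overlapped between the media. Sesn3, a sestrin known as a target of FoxO transcription factors, had 36.2 and 32.2 CPM with asparagine and 26.9 and 28.2 CPM when it was absent. Both libraries without asparagine lay below both with it. The log2 fold change was -0.31 ± 0.12 (SE; 95% interval -0.59 to -0.03), which is a difference of -19.4% that failed the correction for all genes (edgeR adjusted p = 0.233). Its counts of 494 to 966 reads carry a counting error of 3.22% to 4.50%, which leaves out the spread between libraries. The common biological coefficient of variation over all genes tested was 11.2%.

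Sesn1, a sestrin known as a target of p53 and FoxO, had 21.4 and 19.98 CPM with asparagine and 23.3 and 20.3 CPM without it. The groups overlapped, and the log2 fold change was 0.07 ± 0.13 (edgeR adjusted p = 0.794), with an interval of -0.23 to 0.38. Sesn1 reads per Sesn3 read, a ratio that does not depend on the scaling, were 0.591 and 0.620 with asparagine and 0.864 and 0.719 without it. The exact 95% binomial intervals, which cover counting error only, reached up to 0.687 in library B with asparagine and down to 0.636 in library B without it. The ratios themselves did not overlap between the media, though the exact two-sided permutation p of 0.333 is the smallest that 2 libraries against 2 can give. This ratio was chosen after the values were seen.

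Sesn2, the third sestrin and the one best known as a leucine sensor and ATF4 target, had lower CPM than Sesn1 and Sesn3. CPM do not account for length, and Sesn2 has 3475 exon bases, against 3982 in Sesn1 and 15269 in Sesn3. Sesn2 had 6.43 and 5.24 CPM with asparagine and 3.11 and 5.95 CPM without it, a log2 fold change of -0.35 ± 0.30 (edgeR adjusted p = 0.575). Of the CASTOR arginine sensors, Gatsl2 (now Castor2) had the smaller p, with 28.7 and 33.1 CPM with and 25.02 and 29.3 CPM without asparagine (edgeR adjusted p = 0.486). Gatsl3 (now Castor1) had 5.04 and 4.80 CPM with and 3.43 and 6.44 CPM without it. In Sesn2, Gatsl2 and Gatsl3 alike the media overlapped.

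Slc38a9, a lysosomal membrane transporter that reports arginine to the Rag GTPases, had 18.5 and 18.8 CPM with asparagine, and 26.6 and 19.9 CPM without it. Library A without asparagine alone was far above the rest, and library B exceeded the libraries with asparagine by little. The log2 fold change was 0.32 ± 0.16 (SE; edgeR adjusted p = 0.353). It was 0.09 when library A without asparagine was left out and 0.51 when library B was. Each of these fits had 1 library without asparagine, whose spread was taken from the other group. Library A is the one with 56.6% of reads outside annotated features, and the part of this in the result was not tested.

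None of the 3 GATOR1 subunits passed the test, and Nprl2 and Nprl3 lay in opposite directions. Nprl2, with Nprl3 the heterodimer that carries the complex's action on RagA, had 5.59 and 5.64 CPM with asparagine and 7.79 and 7.20 CPM without it. The media did not overlap, and the log2 fold change was 0.42 ± 0.16 (95% interval 0.03 to 0.80), a difference of 33.4% that failed the correction for all genes (edgeR adjusted p = 0.245). Nprl2 rested on the fewest reads of the 10 genes, 133 to 169 per library, with a counting error of 7.69% to 8.67%.

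Nprl3 had 10.4 and 9.67 CPM with asparagine and 8.88 and 8.77 CPM without it, the opposite order to Nprl2. Its log2 fold change was -0.18 ± 0.14 (edgeR adjusted p = 0.523), with an interval of -0.52 to 0.15. Nprl2 reads per Nprl3 read were 0.538 and 0.583 with asparagine and 0.877 and 0.821 without it. The log2 ratio was higher by 0.60 without asparagine, with no overlap between the media and the smallest exact permutation p that the design allows, 0.333 (two-sided). This ratio, too, was chosen after the values were seen. Nprl2 was higher and Nprl3 lower in both libraries without asparagine, so the lack of overlap was fixed by the choice and adds no support. Exons of Nprl3 share 1340 bases, 17.7% of its exon length, with those of the DNA repair gene Mpg on the opposite strand, and where strand was not used such reads cannot be told apart.

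Depdc5, the subunit that holds GATOR1 against the Rags, had 38.5 and 37.8 CPM with asparagine and 41.3 and 33.6 CPM without it. The libraries without asparagine lay on either side of those with it, and the log2 fold change was -0.03 ± 0.13 (edgeR adjusted p = 0.928). Its sign followed the library: -0.19 with library A of the group without asparagine left out and 0.11 with library B left out, neither of them called. With upper quartile scaling it was 0.02.

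Rraga encodes RagA, the GTPase that GATOR1 inactivates and that brings mTORC1 to the lysosome. It had 90.7 and 92.6 CPM with asparagine and 75.5 and 83.9 CPM without it, and the groups did not overlap. The log2 fold change was -0.20 ± 0.11 (edgeR adjusted p = 0.363; 95% interval -0.45 to 0.05), a difference of -13.1% on counts of 1385 to 2777 reads. Rraga is annotated as a single exon of 1618 bases, and none of its 1569 windows of 50 bases occurs in a transcript of another gene, its close relative Rragb included. Slc38a9 reads per Rraga read were 0.204 and 0.203 with asparagine and 0.352 and 0.237 without it. This was the third of 3 such ratios computed, all chosen after the values were seen. Slc38a9 was higher and Rraga lower in both libraries without asparagine, so this ratio adds no support either. The exact two-sided permutation p was again 0.333, the smallest that the design allows, and was not adjusted over the 3. Rragb itself had 0 or 1 reads in each library and Rragd 6 to 14, so neither was tested.

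Of the partners of RagA only Rragc had enough reads to be tested, with 103 and 95.7 CPM with asparagine and 63.5 and 95.5 CPM without it. Library A without asparagine was low and library B was beside the libraries with asparagine, and the log2 fold change of -0.32 ± 0.19 (edgeR adjusted p = 0.403) became -0.06 without library A. Flcn encodes folliculin, which activates the Rags from the RagC side and is mutated in Birt-Hogg-Dubé syndrome. It had 30.6 and 25.7 CPM with asparagine and 29.4 and 31.5 CPM without it. The groups overlapped (log2 fold change 0.12 ± 0.13, edgeR adjusted p = 0.661; interval -0.19 to 0.42).

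On the TSC side, Tsc2 encodes tuberin, the subunit that switches off Rheb. It had 42.0 and 39.8 CPM with asparagine, and 32.9 and 41.8 CPM without it. Library A without asparagine had the lowest value and library B lay between those with asparagine. The log2 fold change was -0.13 ± 0.14 with all libraries (edgeR adjusted p = 0.647). It was 0.03 when library A without asparagine was left out and -0.32 when library B was, fits that rest on 1 library without asparagine. Exons of Tsc2 share 693 bases with those of Pkd1 on the opposite strand, 7.20% of its exon length.

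Ddit4 encodes REDD1, an inhibitor of mTORC1 that acts through the TSC complex and is induced by hypoxia, DNA damage and the amino acid response. It had 11.2 and 13.3 CPM with asparagine and 13.3 and 11.4 CPM without it. The groups lay on top of each other, with a log2 fold change of 0.0027 ± 0.16 (edgeR adjusted p = 0.995), and the 95% interval ran from 0.773-fold to 1.299-fold. Its sign was negative with limma-voom (-0.0040).

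**Figure D2:**
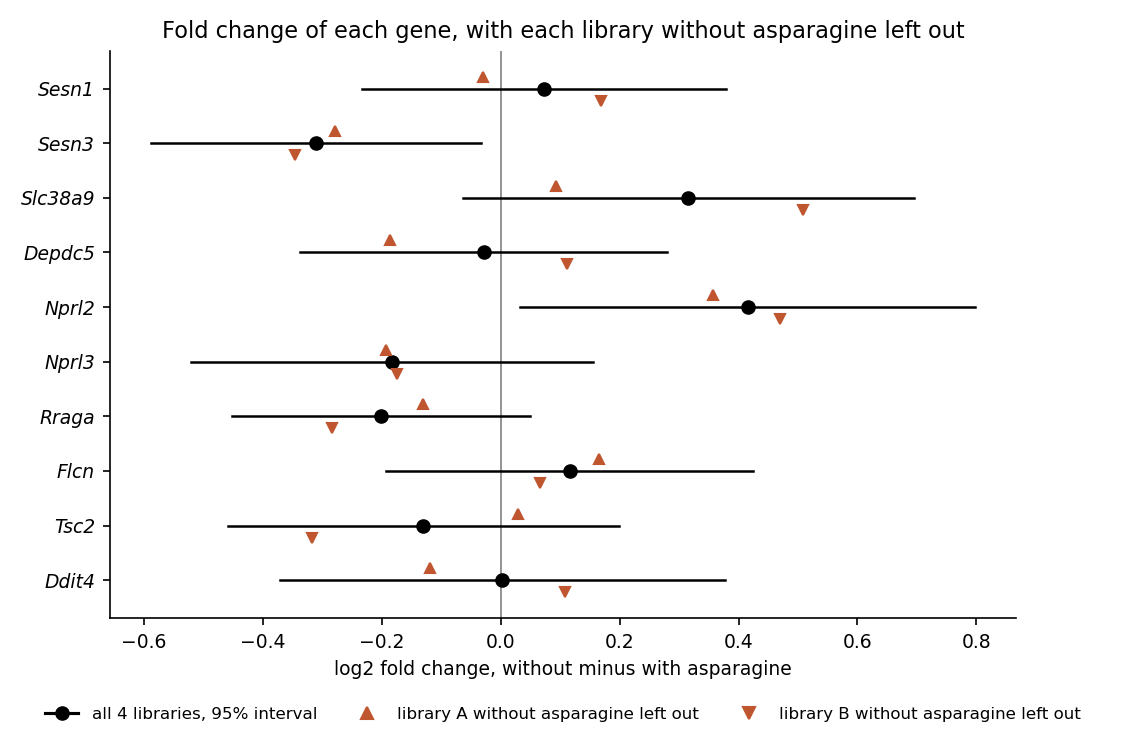
Log2 fold change, without minus with asparagine (horizontal axis), of each gene with all 4 libraries (black points; bars are 95% intervals) and with library A (upward triangles) or library B (downward triangles) of the cells without asparagine left out. Of the black bars, those of Sesn3 and Nprl2 stay clear of 0, and for Sesn1, Depdc5, Tsc2 and Ddit4 the triangles fall on either side of it.

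How many of the genes were called depended on which library was left out. Without library B of the cells without asparagine, Nprl2 and Slc38a9 were called higher and Sesn3, Rraga and Tsc2 lower, 5 of 10 in a fit that called 40.4% of all genes. Without library A of that group 0 of 10 were called, in a fit that called 15.6%. Without library A or B of the cells with asparagine 0 of 10 were called, beside 0.438% and 0.363% of all genes. With all 4 libraries, 5 of the 10 did not overlap between the media, 2 higher and 3 lower without asparagine. Of all genes tested 52.5% did not overlap, 26.1% higher and 26.4% lower, so the share among the 10 is near the background.

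Levels between genes were compared per kilobase of annotated exon (CPM per kb, mean of 4 libraries). Bowtie2 may under-count genes with many exons. The longest transcript has 1 exon in Rraga, against 41 in Tsc2 and 43 in Depdc5. The part of this in the order of levels was not tested. Rraga was far the most abundant at 52.9 ± 4.80 CPM per kb (SD over the 4 libraries), and its lowest library lay above every library of the other genes. Ddit4 and Flcn followed at 7.01 ± 0.676 and 6.78 ± 0.596 and overlapped each other. Sesn1 had 5.33 ± 0.375 and Tsc2 4.07 ± 0.445, each separate from its upper neighbour in every library. Tsc2, Nprl2 (3.26 ± 0.553) and Depdc5 (3.21 ± 0.271) overlapped in this order, and Sesn3 followed at 2.02 ± 0.275. Slc38a9 and Nprl3 were lowest, at 1.25 ± 0.229 and 1.24 ± 0.0995, and overlapped. With the longest transcript as the length Rraga was again first, and 4 neighbouring pairs changed places: Flcn and Ddit4, Tsc2 and Sesn1, Depdc5 and Nprl2, and Nprl3 and Slc38a9. The separation of Sesn1 above Tsc2 was then lost, since their means were 5.57 and 6.24 CPM per kb and their libraries overlapped. Other separations by all exons were lost too: Ddit4 then overlapped Tsc2, and Sesn3 overlapped Nprl2 and Slc38a9. Nprl3 was below Nprl2 and Depdc5, the other subunits of GATOR1, in each of the 4 libraries with either length. However, 31.0% of the 50-base windows in the longest Nprl3 transcript also occur in Mpg, and how reads there were counted is not stated. No level over the unshared part was computed, so the place of Nprl3 in the order is uncertain.

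**Figure D3:**
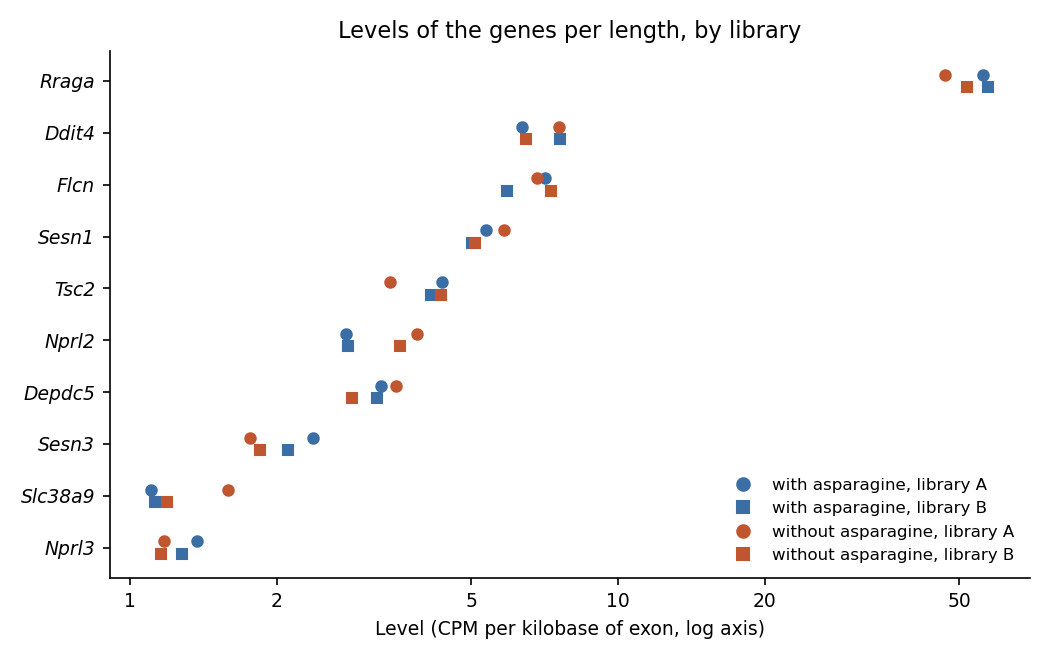
Level per kilobase of annotated exon (horizontal log axis, CPM per kb) of each gene in each library, blue with and orange without asparagine, circles for library A and squares for library B. Rraga lies between 46.7 and 57.3 CPM per kb, and all other values are below 7.61.

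In the wider pathway, 1 gene was called. Of 47 other genes listed for the sensing pathway, 43 were tested, and 19 had a fold change above 0 and 24 below, with a median of -0.046 against 0.0089 over all genes. The called gene was Deptor, which encodes an inhibitory subunit of the mTOR complexes, and it was lower without asparagine, as were 1.07% of all genes tested. Deptor had 119 and 106 CPM with asparagine and 53.5 and 61.1 CPM without it, and each library without asparagine was well under those with it. It fell by 0.97 on the log2 scale (SE 0.12, n = 2 per group, edgeR adjusted p = 0.0155). The value was -0.88 without library A and -1.07 without library B of the cells without asparagine, where 1 library remained in that group. Without library A or B of the cells with asparagine it was -0.88 and -1.05 and no longer called (adjusted p = 0.144 and 0.0744). Deptor lies on chromosome 15 from 55112317 to 55259271 (plus strand, GRCm38), and 303 of its exon bases are shared with Gm9920 on the opposite strand.

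Mtor, the kinase itself, had 142 and 143 CPM with asparagine and 97.6 and 109 CPM without it. The groups did not overlap, and the log2 fold change of -0.46 ± 0.11 missed the threshold in edgeR (adjusted p = 0.0941), while the DESeq2 Wald test did call it (adjusted p = 0.0431). It was also called by edgeR with the libraries' letter as a replicate block (adjusted p = 0.0408) and with no low-count filter (0.0106). These 2 fits called 816 of 12843 and 1334 of 19828 genes, against 237 of 12843 in the main fit. Mtor was called too without library A or B of the cells without asparagine, where its log2 fold changes were -0.39 and -0.55. It was called in 5 of 13 settings in all, and each of the 5 called more genes than the main fit. Rptor, the subunit that defines mTORC1, had 60.1 and 63.9 CPM with and 69.3 and 65.6 CPM without asparagine (edgeR adjusted p = 0.567). Among the 5 mTORC1 genes, 1 was called and the median log2 fold change was 0.12.

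In the other groups of the pathway no gene was called with all 4 libraries in the main test. B630005N14Rik, now named Bmt2 and also known as the methionine-linked sensor SAMTOR, had 87.1 and 83.0 CPM with and 47.7 and 67.0 CPM without asparagine (log2 fold change -0.57, edgeR adjusted p = 0.155). It was called in 4 of 13 settings: with the replicate block (adjusted p = 0.0171), with no low-count filter (0.0011), and without library A or B of the cells without asparagine, at -0.35 and -0.84. Each of these 4 fits called more genes than the main one. In GATOR2, the counterpart of GATOR1, Wdr59 had 39.8 CPM in each library with asparagine and 30.1 and 34.4 CPM without it (adjusted p = 0.241 by edgeR). Rps6kb2, which encodes an S6 kinase downstream of mTORC1, had 7.27 and 6.71 CPM with and 11.2 and 8.68 CPM without asparagine (edgeR adjusted p = 0.212). In the remaining groups the smallest p-values were those of Itfg2 in KICSTOR, the scaffold of GATOR1, of Lamtor5 in Ragulator, the lysosomal anchor of the Rags, of Fnip1 among the folliculin partners and of Rhebl1 beside the TSC complex. Their log2 fold changes were 0.32, 0.21, -0.23 and 0.50, with edgeR adjusted p-values of 0.322, 0.381, 0.398 and 0.363. With library A lacking asparagine left out, which leaves 1 library in its group, these values were 0.19, 0.14, -0.35 and 0.11, and Fnip1 was called. Without library B they were 0.43, 0.28, -0.13 and 0.82, and Itfg2, Lamtor5 and Rhebl1 were called, as were Gatsl2, Rragc, Wdr59 and Rps6kb2, in the fit that called 40.4% of all genes.

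**Figure D4:**
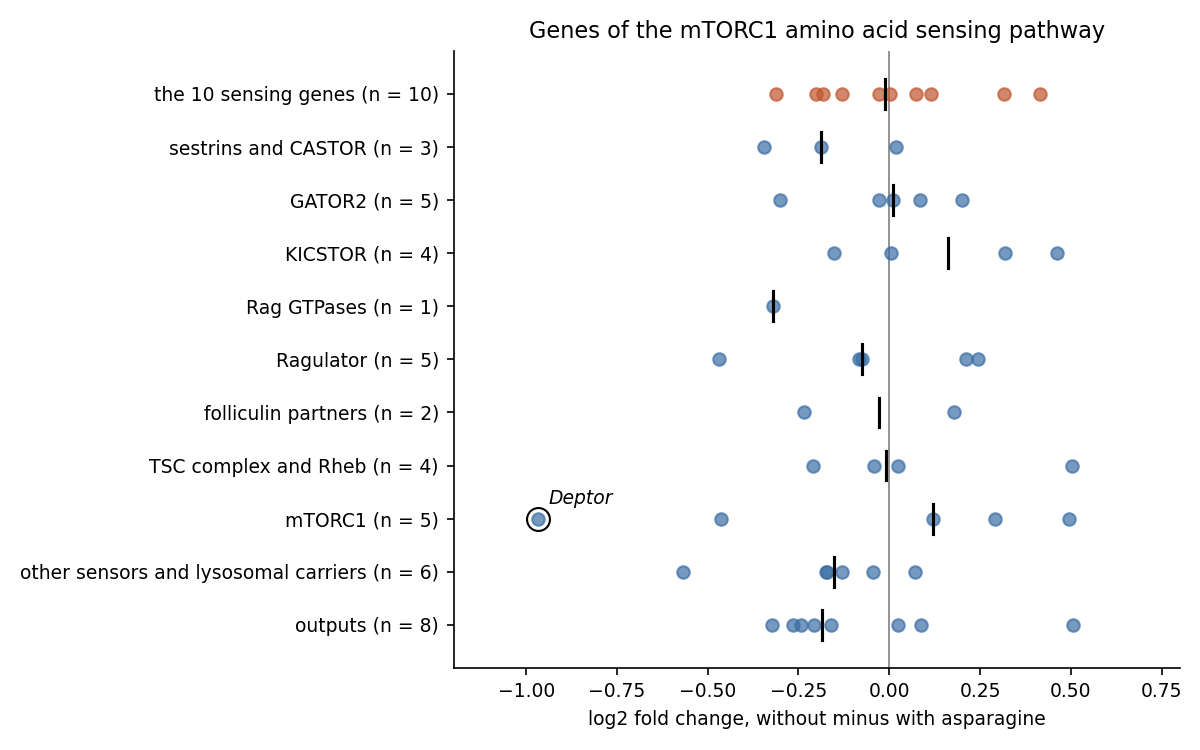
Log2 fold change, without minus with asparagine (horizontal axis), of the 10 sensing genes (orange) and of 43 other tested pathway genes (blue) by complex; short black lines are medians and a ring marks a gene called by edgeR. The ringed point is Deptor at -0.97, and the 10 sensing genes lie between -0.31 and 0.42.

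Stress responses known to act on Sesn1, Sesn2 and Ddit4 held called genes, whose values stand here beside those of the sestrins and Ddit4. Of 16 hypoxia targets tested, 3 were lower, Egln3, Car9 and Bnip3, and the median was -0.30, while Ddit4 had a log2 fold change of 0.0027. Of 13 p53 targets tested, 2 were higher, Plk2 and Fas, by 1.86 and 1.94 on the log2 scale (edgeR adjusted p = 0.00434 and 0.0316), while the median was -0.07 and Sesn1 had 0.07. Fas rested on only 22 to 78 reads per library, against 721 to 2366 for Plk2. Of 19 ATF4 targets tested, 1 was higher, Aldh1l2, and the median was 0.25, while Ddit4 and Sesn2 had 0.0027 and -0.35. Over all genes tested, 0.771% were called higher and 1.07% lower, and the median was 0.0089. An unadjusted edgeR p under 0.05 was found in 7 of 16 hypoxia, 5 of 13 p53 and 10 of 19 ATF4 targets. The share over all genes was 18.1%. Values below 0 numbered 13 of 16, 8 of 13 and 5 of 19 in the same order, against 48.6% of all genes. Sesn2 is itself in the p53 and ATF4 lists, and the silenced Asns is in the ATF4 list. The lists were described by their counts alone, and no difference between a list and a member was tested.

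In the GENCODE M21 annotation (GRCm38), Sesn1 lies on chromosome 10 from 41809935 to 41908424 and Ddit4 on the same chromosome from 59949669 to 59951834. Sesn3 and Nprl2 lie on chromosome 9, spanning 14275067 to 14333101 and 107542226 to 107545706. Nprl3 and Flcn lie on chromosome 11, spanning 32225628 to 32267707 and 59791408 to 59810016. Slc38a9 lies on chromosome 13 from 112660751 to 112738749 and Depdc5 on chromosome 5 from 32863701 to 32994236. Rraga lies on chromosome 4 from 86575668 to 86577285 and Tsc2 on chromosome 17 from 24595816 to 24632630. Besides Nprl3 and Tsc2, Slc38a9 shares exon bases with a gene on the opposite strand, 182 bases with Gm47827, and the other 7 genes share none.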

How the data were processed

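Total RNA was prepared with a Qiagen kit and libraries were amplified by NuGEN Ovation RNAseq V2, per the labels' protocols. The authors deposited unnormalised read counts per gene symbol, from Bowtie2 and HTSeq on mm10, per the submitters' processing notes. Their versions, settings and annotation, and whether strand was used, are not stated in the sources used here. Bowtie2 does not split reads over introns by itself, so genes with many short exons may be under-counted in both groups alike. Such under-counting would differ between genes, and it may enter their levels per length. The 5 HTSeq summary rows, 60.1% to 70.0% of all reads in a library, entered neither library sizes nor tests.

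Genes passing filterByExpr (minimum count 10, minimum total count 15) numbered 12843 and included all 10 sensing genes. The counts, after TMM scaling, were tested in R 4.3.3 with edgeR 4.0.16 (quasi-likelihood F test, 2 against 2 libraries, no term for the letter). Adjustment was by Benjamini-Hochberg over all genes tested, with a threshold of 0.05. The SE is the size of the log2 fold change divided by the square root of F, and 95% intervals use the test's own degrees of freedom (6.96). The common biological coefficient of variation was 11.2%. Alternatives were limma 3.58.1 (voom), DESeq2 1.42.0 (Wald test), other scalings and filters, the letter as a block, the 10 most abundant genes left out and each library left out in turn. Where a library was left out, 1 remained in its group, whose spread was taken from the other group. The test was also run on simulated data.

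All 10 sensing genes are named. Of the other pathway genes, those called are named and otherwise the one with the smallest p in each group. Mtor, Rptor, Sesn2 and Gatsl3, and the untested Rragb and Rragd, were named after their values were seen. Called genes of the context lists are named, at most 3 per list. In the lists, 2 genes were matched by older symbols after the table was read (B630005N14Rik for Bmt2, Emr1 for Adgre1). Members and lists were chosen with earlier results of these data known. Exon lengths and overlaps are from GENCODE M21 and promoter letters from RefSeq, both GRCm38, the assembly that mm10 names.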

Additional observations from a re-analysis of the deposited data

How the results depend on the processing

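With the other scalings, filters and tests, with the replicate block and without the 10 most abundant genes, 0 of the 10 sensing genes were called. Leaving out a library gave 0 to 5 called sensing genes and 48 to 5363 called genes in all, against 237. Over all genes, 464 were called with the DESeq2 Wald test, 1334 with no low-count filter and 816 with the replicate block. Libraries sharing a letter had a correlation of 0.123 between their deviations from the group means across 12843 genes. The labels do not say what a letter marks, so the block is given as a check only. Several fold changes near 0 changed sign. Depdc5 was 0.022 with upper quartile scaling, and Ddit4 -0.0040 with limma-voom and -0.0039 with no low-count filter. With each library left out in turn, log2 fold changes ran from -0.030 to 0.17 for Sesn1, -0.12 to 0.14 for Ddit4, -0.19 to 0.11 for Depdc5, -0.012 to 0.25 for Flcn and -0.32 to 0.029 for Tsc2. Of these, Tsc2 at -0.32 was called, and the cause was not tested. The ratio of the highest to the lowest level per length was 42.5 with all annotated exons and 22.5 with the longest transcript. The calls of Deptor, Fas, Egln3, Car9, Bnip3 and Aldh1l2 were lost without either library with asparagine. With 133 to 400 reads per library, Nprl2, Nprl3 and Ddit4 had the largest counting errors of the 10, up to 8.67%.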

Other observations

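Lysosomal genes of the CLEAR network, which the factors TFEB and TFE3 switch on when mTORC1 or folliculin is inactive, had values below 0 in 21 of 26 tested members, 80.8%, against 48.6% of all genes tested. The median log2 fold change was -0.19 against 0.0089 over all genes, and 1 member was called lower, as were 1.07% of all genes tested. That member was Gpnmb, which encodes a lysosomal glycoprotein. It had 44.3 and 44.7 CPM with asparagine and 15.4 and 17.0 CPM without it, and fell by 1.46 on the log2 scale (SE 0.12, n = 2 per group, edgeR adjusted p = 0.00511). At an unadjusted p under 0.05 there were 2 of the 26, against 18.1% of all genes. The call of Gpnmb held with each library left out in turn. Of 13 FoxO targets tested, 0 were called by edgeR, 5 had an unadjusted p under 0.05 beside 18.1% of all genes, and the median was -0.03.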
